A study of Mus musculus with 30 samples.

Results

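Among 34724 intervals bound by at least 1 of 9 transcription factors in induced 3T3-L1 cells, 681 were listed for cJun, JunB, KLF4, KLF5, VDR and RXR and for none of ATF2, ATF7 and FOSL2. These Jun-KLF-receptor regions were chosen by the listing itself: an interval with identical coordinates had to be present in the first 6 peak lists and absent from the other 3, on chromosomes 1 to 19 and X. Their number and their factors therefore describe the choice and carry no test. What lay around them, and where they stood in the genome and in the lists, was not used in the choice. Some comparisons below nevertheless count the chosen regions themselves as nearby sites. Every other region of exactly 6 factors also holds ATF2, ATF7 or FOSL2 by the rule.

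The study mapped binding by chromatin immunoprecipitation with sequencing (ChIP-seq) in 3T3-L1 pre-adipocytes, a mouse fibroblast line that becomes fat cells on hormone treatment. All 9 libraries used here share 1 condition: post-confluent cells were given 1 μM dexamethasone, 0.5 mM isobutylmethylxanthine, 1 μg/mL insulin and 10% fetal calf serum and were harvested 4 h later. Each factor had 1 library and no replicate, so that no value carries an error between cultures, and no unstimulated library of these factors was analysed here. The files held coordinates only, in the mouse build mm9, so the depth of the libraries and the strength of each site are unknown.

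The factors belong to 3 families. cJun and JunB are Jun proteins, which are among the bZIP subunits of AP-1, bind DNA as dimers and respond quickly to growth factors and serum. FOSL2 is a Fos-family partner of Jun proteins, and ATF2 and ATF7 are closely related bZIP proteins that recognise cyclic AMP response elements. KLF4 and KLF5 are zinc-finger factors that bind GC-rich sites, and both are known as promoters of early adipogenesis in these cells. VDR, the vitamin D receptor, binds DNA with RXR, the retinoid X receptor, which is also the partner of the fat-cell regulator PPARγ. The label of the RXR library names no receptor subtype.

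The Jun-KLF-receptor combination was by far the most frequent way in which 6 factors met. Of 1616 regions listed for exactly 6 factors, it made up 42.1%. The next 4 combinations held 76, 63, 59 and 57 regions, so that the first stood 8.96-fold above the second. The second, ATF2 and ATF7 with both KLF factors and both receptors, also carried a pair of related bZIP proteins in place of the Jun pair. Of the 84 possible combinations, 65 occurred, and the other 64 had a median of 7.5 regions. These counts take no account of the lengths of the lists, which ran from 5875 KLF4 sites and 6175 cJun sites to 17120 KLF5 sites on these chromosomes. The regions were 11.6% of the KLF4 list and 11.0% of the cJun list, but 3.98% of the longer KLF5 list.

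**Figure D1:**
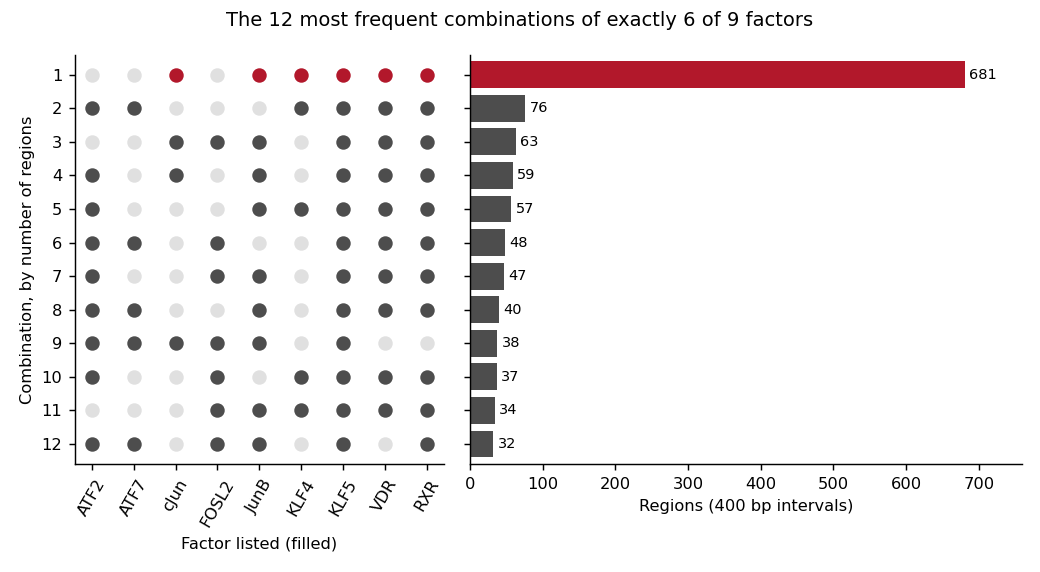
The 12 most frequent combinations of exactly 6 factors: filled dots mark the factors listed, and bars give the number of 400 bp regions. The Jun-KLF-receptor combination (top, red) has 681 regions and the next has 76.

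Seen from the KLF and receptor side, 927 regions of exactly 6 factors held both KLF factors and both receptors with a pair of bZIP proteins. In 681 of them (73.5%) the pair was cJun and JunB, and the other 9 possible pairs shared 246. Seen from the Jun side, 1062 regions of exactly 6 factors held cJun and JunB, and 64.1% of these had both KLF factors and both receptors as the remaining 4.

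Regions that missed the rule by 1 list showed which of the 6 was most often lacking. Without KLF4 there were 411 regions, without cJun 234 and without JunB 192. Without RXR, KLF5 or VDR there were 17, 20 and 24. KLF4 was thus the most frequent missing member, and KLF5, VDR and RXR were rarely missing. JunB, with 10082 sites against 11794 of VDR, was missing at 192 regions and VDR at 24; the part of list length in these counts was not tested. In the other direction, 94 regions held the 6 factors and ATF2, 90 held them and FOSL2, and 52 held them and ATF7.

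All 6 factors together, whatever else was listed, occurred at 1702 regions. None of ATF2, ATF7 and FOSL2 was listed at 681 of them (40.0%), 1 of these at 236 (13.9%), 2 at 281 (16.5%) and all 3 at 504 (29.6%). The 2 extremes, none and all, were thus more frequent than the steps between them. This split was not computed for other regions, so it cannot be called particular to these. ATF2 was listed at 49.2% of the 1702 regions, FOSL2 at 45.3% and ATF7 at 41.2%, against 33.3%, 18.1% and 21.2% of all intervals.

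Closest in makeup among regions of exactly 6 factors were those sharing 5 of the 6. There were 312 in 17 of 18 possible combinations. The most frequent exchanged KLF4 for FOSL2 (63 regions), KLF4 for ATF2 (59) and cJun for ATF2 (57). Exchanges of KLF5 for another factor gave 1 region with ATF2, 1 with ATF7 and 4 with FOSL2, and RXR was exchanged for ATF7 at none.

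The regions were found on every chromosome used. Chromosome 6 held the most, 74 (10.9% of them, against 7.98% of all intervals). Chromosome 2 followed with 65 (9.54% against 8.31%) and chromosome 1 with 48 (7.05% against 7.04%), and chromosome X held 12 (1.76% against 1.93%). As a share of the listed intervals of a chromosome, the regions were highest on chromosome 16 (3.10%, exact 95% interval 2.27 to 4.13). They were lowest on chromosome 7 (0.954%, 0.535 to 1.57), against 1.96% over all chromosomes. As a share of all regions of exactly 6 factors they ran from 30.8% on chromosome 17 (16 of 52, exact 95% interval 18.7 to 45.1) to 80.0% on chromosome X (12 of 15, 51.9 to 95.7), with a median of 40.0% over chromosomes. The exact intervals of chromosomes 6 (50.7%, 42.3 to 59.0) and X lay above the share over all chromosomes, and none lay below it. The lower bound of chromosome 6 was close to that share, 42.1%. Chromosome X stood apart on few regions, with 3 of any other combination of 6. Of its 670 listed intervals, 1.79% (0.929 to 3.11) were Jun-KLF-receptor regions, so it was not richer in them by that measure. The exact intervals cover counting error only and were not adjusted for the 20 chromosomes.

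**Figure D2:**
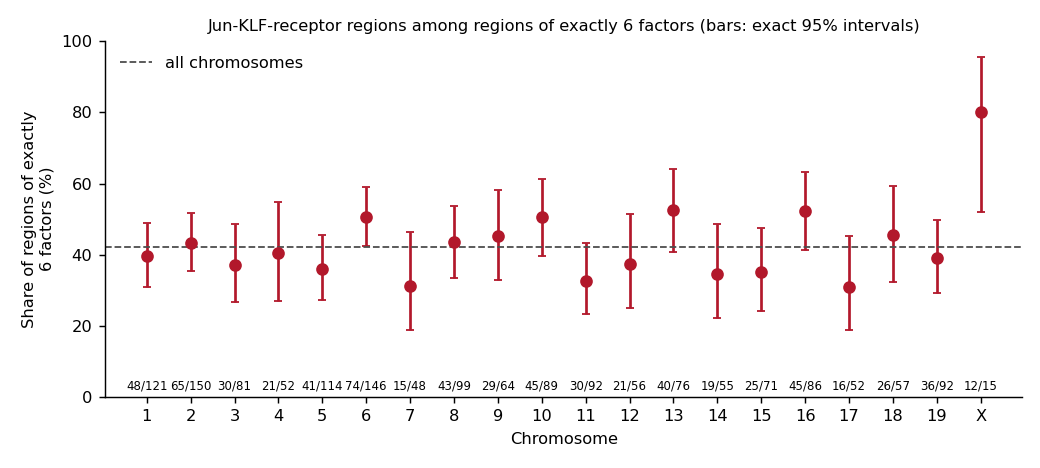
Share of regions of exactly 6 factors that were Jun-KLF-receptor regions, by chromosome, with exact 95% intervals and the counts above the axis. Chromosome X stands at 80.0% on 15 regions; the dashed line marks 42.1%, the share over all chromosomes.

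The gap between neighbouring Jun-KLF-receptor regions on a chromosome had a median of 1323 kb over 661 gaps. Of the 474 bins of 1 Mb that held any, 345 held exactly 1. No such values were computed for other sets of regions, so they are a description only. The fullest bins of 1 Mb, counted from the chromosome's start, had 8 each. They lay between 107 and 108 Mb of chromosome 10, among 375 listed intervals, between 17 and 18 Mb of chromosome 6, among 76, and between 29 and 30 Mb of chromosome 19, among 41. The bins on chromosomes 6 and 19 held 2 regions each of other combinations of 6, and the bin on chromosome 10 held 4. Over all chromosomes, 1.96% of listed intervals were Jun-KLF-receptor regions.

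A small part stood close together. Another Jun-KLF-receptor region lay within 10 kb of 44 of the 681 (6.46%, exact interval 4.73 to 8.58), against 32 of 935 other regions of exactly 6 factors (3.42%, 2.35 to 4.80). Among all intervals this share was 2.49%. The difference was 3.04 points, with a 95% interval of 0.559 to 5.52 estimated by jackknife over the 20 chromosomes, and the share was higher on 12 chromosomes and lower on 7. Regions sharing 5 of the 6 factors lay between these values, with a Jun-KLF-receptor region near 14 of 312 (4.49%, 2.47 to 7.41), and against them the interval of the difference reached 0 (1.97 points, -1.07 to 5.02). The 44 regions formed 19 groups of 2 and 2 groups of 3. Within these 21 groups the regions count each other, so the exact interval takes as separate what is not. The regions looked for were themselves chosen by the rule, and hits among the others are not mutual in this way.

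The groups of 3 lay on chromosome 6 from 12404994 to 12409181 and on chromosome 8 from 55040116 to 55053654 (mm9, 1-based). In the first, 1 interval of another combination stood among the 3; in the second there was none. The closest pair had midpoints 522 bp apart, on chromosome 2 at 148254210 to 148254609 and 148254732 to 148255131. On chromosome 5, a pair at 16375032 to 16375431 and 16375675 to 16376074 was 643 bp apart. The third pair, on chromosome 19 at 20460894 to 20461293 and 20462129 to 20462528, was 1235 bp apart. On chromosome 16 there were pairs at 86141601 to 86142000 and 86142948 to 86143347 (1347 bp), and at 25784309 to 25784708 and 25786585 to 25786984 (2276 bp). The rest of the 10 closest were 2 pairs in the group on chromosome 6 (1327 and 2461 bp) and 1 pair each on chromosomes 14 (1859 bp), 15 (2151 bp) and 2 (2357 bp). What genes lie at these positions was not analysed here, because no mm9 annotation was used.

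At the other end were regions with no other listed interval in a wide stretch around them. The 5 most isolated were on chromosome 11 at 28243478 to 28243877 (490 kb to the nearest), chromosome 1 at 46926563 to 46926962 (461 kb), chromosome 3 at 98178798 to 98179197 (285 kb), chromosome 2 at 55683501 to 55683900 (262 kb) and chromosome 2 at 97010396 to 97010795 (205 kb). A sixth, on chromosome 3 at 117571023 to 117571422, was 202 kb from the nearest. Each of these places was listed for all 6 factors and had no other site of any of the 9 around it over that distance.

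The nearest other listed interval was at a median of 4780 bp (quartiles 1475 and 14111), against 3720 bp for the other regions of exactly 6 factors (1054 and 12770) and 5996 bp for all intervals (1498 and 19839). Another interval lay within 10 kb of 448 of the 681 (65.8%) and of 662 of the 935 others (70.8%), where all intervals gave 60.6%. The difference of -5.02 points had a jackknife interval that reached 0 (-10.9 to 0.914); without chromosome 10 it was -6.15 (-11.9 to -0.365). Hotspots, intervals with 5 or more factors, included the Jun-KLF-receptor regions themselves. Another hotspot lay within 10 kb of 26.6% of the Jun-KLF-receptor regions and of 27.5% of the others (difference -0.908, -5.46 to 3.64). Among all intervals that share was 19.7%. For scale, 78.6% of the 504 regions of all 9 factors had another interval within 10 kb, and 54.3% of the 411 that held 5 of the 6 factors and lacked KLF4. These values were not tested against each other.

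Relative to their number, Jun-KLF-receptor regions had fewer distinct intervals around them than other regions of 6 factors. Mainly intervals with ATF2, ATF7, FOSL2 or KLF5 were fewer. Intervals within 10 kb numbered 789 around the 681 Jun-KLF-receptor regions and 1353 around the 935 others, of which 53 were common to both. Intervals of exactly 6 factors were not counted as neighbours on either side. Each neighbour was counted once per set, however many regions of the set it lay near. The counts per 100 regions are therefore not mean numbers around a region, and are lower where regions stand close together and share neighbours. How far this enters the differences was not tested. Both sets of neighbours carried a median of 2 factors and nearly the same mean, 2.81 and 2.73. Per 100 regions there were 116 neighbours around the Jun-KLF-receptor regions and 145 around the others, a difference of -28.8 (jackknife interval -41.4 to -16.3), lower on 19 of 20 chromosomes. Around the 312 regions sharing 5 of the 6 factors there were 141. Against these the interval of the difference reached 0 (-25.2, -50.7 to 0.360).

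Counted per 100 regions, neighbours listed for ATF2 numbered 31.9 around the Jun-KLF-receptor regions and 54.8 around the others (difference -22.9, -30.5 to -15.3). For KLF5 there were 63.7 and 82.2 (difference -18.5, -26.0 to -11.0), for ATF7 21.6 and 35.1 (difference -13.5, -18.5 to -8.49), and for FOSL2 19.1 and 30.4 (difference -11.3, -15.9 to -6.66). Receptor neighbours were nearly as many on both sides: VDR had 50.2 and 50.1 per 100 regions (difference 0.167, -5.12 to 5.45), and RXR 56.1 and 56.5 (difference -0.377, -6.27 to 5.52). For the Jun proteins and KLF4 the intervals of the difference also held 0, with 24.7 and 22.6 for cJun (2.10, -3.21 to 7.42), 33.6 and 35.4 for JunB (-1.77, -5.57 to 2.02) and 24.5 and 28.2 for KLF4 (-3.71, -9.78 to 2.35). These counts per region were added after the shares of neighbours were seen. The shares that follow describe the makeup of the neighbours, so that a higher share of a factor does not mean more of its sites around a region.

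As a share of all neighbours, the nuclear receptors were higher around the Jun-KLF-receptor regions, although their number per region was not. VDR was listed at 43.3% of their neighbours (exact interval 39.9 to 46.9) and at 34.6% of the neighbours of the others (32.1 to 37.2), a difference of 8.76 points (jackknife interval 3.82 to 13.7). It was higher on 17 of 20 chromosomes. RXR was listed at 48.4% (44.9 to 52.0) and 39.0% (36.4 to 41.7), a difference of 9.39 points (2.08 to 16.7), higher on 16; with neighbours under 1 kb left out it was 7.64 (-0.192 to 15.5). Both receptors together were listed at 32.8% and 24.4% (difference 8.44, 2.96 to 13.9). Among intervals within 10 kb of any other interval, 32.2% were listed for VDR and 34.6% for RXR, so that the neighbours of the other 6-factor regions lay nearer to that level.

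The Jun proteins also made up a larger share of the neighbours, again without a difference in number per region beyond its interval. cJun was listed at 21.3% of their neighbours and 15.6% of the others' (difference 5.70 points, 0.847 to 10.5). JunB was listed at 29.0% and 24.5% (difference 4.56 points, 0.468 to 8.65). Both intervals reached 0 when neighbours under 1 kb were left out (4.55 points for cJun, 3.67 for JunB) or when only 5 kb were searched (4.88 and 3.19), and that of JunB also within 50 kb (2.87). The intervals near any other interval gave 15.5% for cJun and 26.0% for JunB. For the shares of the KLF factors the interval of the difference held 0. KLF4 was listed at 21.2% and 19.5% (difference 1.65, -4.21 to 7.52; 16.4% near any interval), and KLF5 at 55.0% and 56.8% (difference -1.83, -7.90 to 4.24; 50.8% near any interval). Without chromosome 10 the KLF5 difference was 0.399 (-4.28 to 5.08).

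Compared with the other regions of 6 factors, the 3 factors that the regions lacked were fewer around them both per region and as a share of the neighbours. Every other combination of exactly 6 factors holds at least 1 of these 3, so the rule itself set the 2 sides apart in them. How far this makes up the differences around the regions was not tested. ATF2 was listed at 27.5% of their neighbours (24.4 to 30.8) and 37.8% of the others' (35.2 to 40.5), a difference of -10.3 points (-15.1 to -5.59), and was lower on 16 of 20 chromosomes. ATF7 was listed at 18.6% and 24.2% (difference -5.61, -9.16 to -2.07) and was lower on 17. FOSL2 was listed at 16.5% and 21.0% (difference -4.51, -7.70 to -1.33) and was lower on 14. With neighbours under 1 kb left out, the intervals of ATF7 (-3.93, -8.86 to 1.00) and FOSL2 (-3.17, -6.76 to 0.419) reached 0, and within 50 kb that of FOSL2 did (-3.61, -7.42 to 0.205). Near any interval the shares were 34.2% for ATF2, 21.9% for ATF7 and 19% for FOSL2. At least 1 of the 3 was listed at 39.0% of neighbours of the Jun-KLF-receptor regions and at 51.3% of neighbours of the others (difference -12.3, -19.4 to -5.14).

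**Figure D3:**
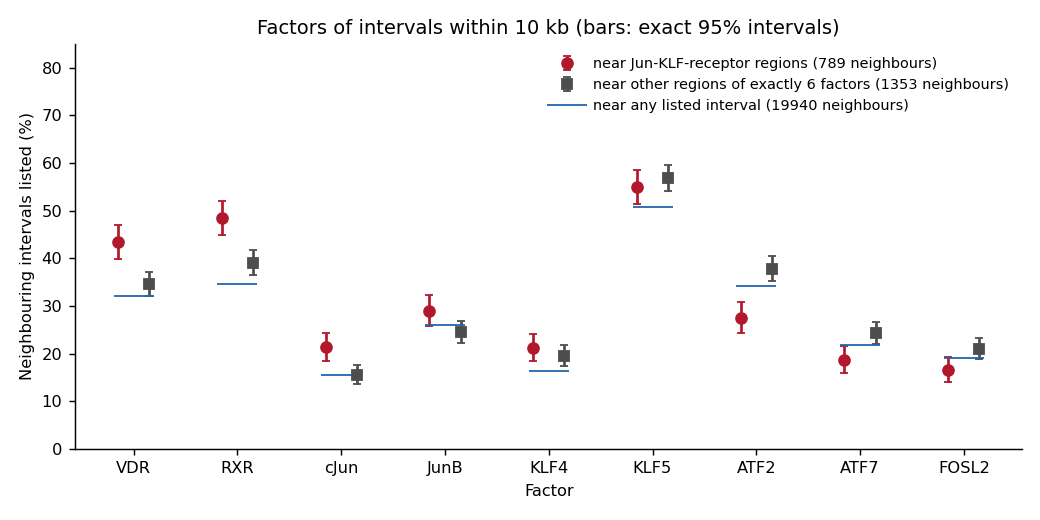
Share of intervals within 10 kb that were listed for each factor, around Jun-KLF-receptor regions (red circles, 789 neighbours) and around other regions of exactly 6 factors (grey squares, 1353 neighbours), with exact 95% intervals; blue lines give intervals near any other interval (19940). VDR stands at 43.3% against 34.6%, and ATF2 at 27.5% against 37.8%; these are shares of neighbours, not numbers per region.

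For the receptors, the Jun proteins, ATF2, ATF7 and FOSL2, the differences in share were smaller against regions of more similar makeup. Of the 935 others, 707 were themselves listed for ATF2, 576 for FOSL2 and 509 for ATF7. When the comparison was limited to the 312 regions that share 5 of the 6 factors, with 440 neighbours, the difference was 5.38 points for cJun (0.200 to 10.6) and 5.78 for both receptors together (0.163 to 11.4), and for ATF2, ATF7 or FOSL2 it was -4.15 (-14.5 to 6.21). The intervals of these single factors reached 0: VDR had 6.53 points (-0.304 to 13.4), RXR 3.42 (-4.84 to 11.7), JunB 2.89 (-2.81 to 8.59), ATF2 -3.63 (-11.6 to 4.35), ATF7 -1.82 (-8.43 to 4.78) and FOSL2 -0.796 (-5.72 to 4.13). Counted per 100 regions, this comparison gave neighbours with both receptors at 38.0 around the Jun-KLF-receptor regions and 38.1 around the regions sharing 5 factors (difference -0.109, -8.73 to 8.52), and with cJun at 24.7 and 22.4 (difference 2.23, -2.97 to 7.43). KLF5 was the 1 factor whose interval left out 0, with 63.7 and 81.4 neighbours per 100 regions (difference -17.7, -30.3 to -5.02). The intervals reached 0 for ATF2 (-12.0, -27.2 to 3.08), ATF7 (-7.26, -17.9 to 3.39) and FOSL2 (-5.27, -13.8 to 3.22). Around the regions of all 9 factors, 38.2% of 914 neighbours were listed for VDR, 42.5% for RXR and 41.1% for ATF2. Around the 411 regions of 5 of the 6 factors without KLF4, 376 neighbours gave 50.8% for VDR, 48.7% for RXR and 25.8% for ATF2, near the values around the Jun-KLF-receptor regions or beyond them.

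By distance, the share of neighbours with both receptors around the Jun-KLF-receptor regions was highest close by. Within 0.2 to 1 kb of a Jun-KLF-receptor region, both receptors were listed at 37.0% of 138 neighbours (exact interval 28.9 to 45.6), at 1 to 5 kb at 34.2% of 345, at 5 to 10 kb at 29.4% of 306 and at 10 to 50 kb at 26.7% of 1993 (24.8 to 28.7). Around the other regions of exactly 6 factors the shares were 22.7% of 229 (17.4 to 28.7), 26.7% of 584, 22.6% of 540 and 22.5% of 2938 (21.0 to 24.1). A like course was seen for KLF5, with 63.0%, 55.1%, 51.3% and 48.3% around the Jun-KLF-receptor regions and 62.9%, 55.3%, 55.9% and 51.4% around the others, and for KLF4 around the Jun-KLF-receptor regions (24.6%, 20.9%, 19.9% and 17.5%). It was therefore not particular to the receptors, and no trend was tested. The share of neighbours with ATF2, ATF7 or FOSL2 did not fall steadily with distance. It was 39.9%, 35.7%, 42.5% and 41.4% around the Jun-KLF-receptor regions, and 53.7%, 49.5%, 52.2% and 52.7% around the others. At 10 to 50 kb the exact intervals of the 2 values did not overlap (39.3 to 43.6 and 50.9 to 54.5). These intervals take neighbours as independent units, and no jackknife interval was computed for the distance bins.

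**Figure D4:**
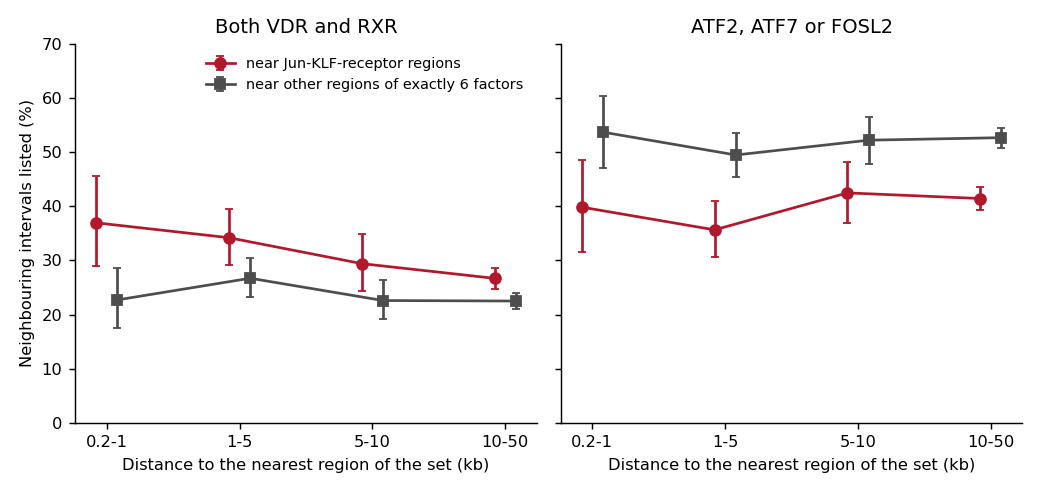
Share of neighbouring intervals listed for both VDR and RXR (left) and for ATF2, ATF7 or FOSL2 (right), by distance from the nearest Jun-KLF-receptor region (red) or other region of exactly 6 factors (grey), with exact 95% intervals. The receptor share around Jun-KLF-receptor regions runs from 37.0% at 0.2 to 1 kb to 26.7% at 10 to 50 kb, and the share with ATF2, ATF7 or FOSL2 stays between 35.7% and 42.5%.

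A separate site of a lacking factor was then looked for around each region, against those other regions of 6 factors that lack it too. All of those other regions were themselves listed for another of ATF2, ATF7 and FOSL2, and the Jun-KLF-receptor regions for none. The rule thus still set the sides apart here, and its part in the differences was not tested. FOSL2 had an interval within 10 kb of 109 of the 681 regions (16.0%), against 92 of 359 others without FOSL2 (25.6%). The difference was -9.62 points (jackknife interval -15.6 to -3.66). ATF7 had one near 126 regions (18.5%), against 104 of 426 (24.4%), a difference of -5.91 points (-11.1 to -0.748). For ATF2 the shares were 26.9% and 28.5% of 228, and the difference of -1.64 points had an interval of -9.47 to 6.20. All intervals without the factor gave 18.7% for FOSL2, 21.0% for ATF7 and 28.0% for ATF2. These background shares lay within the exact intervals of the Jun-KLF-receptor regions. Those intervals were 13.33 to 18.98 for FOSL2, 15.7 to 21.6 for ATF7 and 23.6 to 30.4 for ATF2. The other regions of 6 factors stood above the background beyond their exact interval for FOSL2 only (21.2 to 30.5). Their intervals for ATF7 (20.4 to 28.8) and ATF2 (22.7 to 34.8) held it.

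For the 6 factors of the regions, the nearest further site of the same factor was compared with other regions of 6 factors that list it. Intervals of exactly 6 factors were kept here, so another Jun-KLF-receptor region nearby counted as a further site of each of the 6 factors. Such a region lay within 10 kb of 6.46% of the Jun-KLF-receptor regions and of 3.42% of all other regions of exactly 6 factors. Its part in the differences below was not tested. A further KLF5 site lay within 10 kb of 48.3% of the Jun-KLF-receptor regions and 57.3% of 846 others (difference -9.02 points, -14.8 to -3.27). A further KLF4 site lay within 10 kb of 26.9% and of 35.4% of 395 others (difference -8.57, -13.9 to -3.25). Among all sites of the factor this share was 49.0% for KLF5 and 29.2% for KLF4. A further cJun site was near 27.9% and 22.4% of 407 others (difference 5.54, 0.608 to 10.5; 23.9% of all cJun sites), and a further JunB site near 36.3% and 32.7% of 700 others (difference 3.56, 0.311 to 6.80; 30.7% of all JunB sites). Without chromosome 10 the intervals of both Jun differences reached 0: 4.74 points for cJun (-0.198 to 9.67) and 2.85 for JunB (-0.205 to 5.90). They did so too within 5 kb (3.66 and 0.654 points) and, for JunB, within 50 kb (2.38). For further receptor sites the intervals of the difference reached 0: VDR was near 43.2% and 41.4% of 695 others (difference 1.73, -3.23 to 6.69; 38.1% of all VDR sites), and RXR near 46.4% and 46.2% of 775 others (difference 0.209, -4.85 to 5.27; 42.5% of all RXR sites).

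The lists also have an order of lines, and shared intervals stood in the same order in 36 of 36 pairs of lists. No source used here gives the basis of that order, so the positions are a description without a test. In the KLF5 list, the median Jun-KLF-receptor region stood at 16.0% of the list's length (lowest 0.0643%, highest 85.1%), against 35.2% for the 846 other regions of 6 factors in that list. In the cJun list the medians were 21.3% and 48.9%, in the JunB list 17.2% and 39.9%, in the KLF4 list 31.7% and 50.3%, in the VDR list 20.6% and 41.0%, and in the RXR list 19.7% and 42.5%. The first 25% of the KLF5 list held 67.0% of the Jun-KLF-receptor regions and 33.0% of the others. These 6 comparisons read 1 shared order and are not independent.

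Regions of the same 6 factors and 1 other had medians of 14.9% in the KLF5 list and 20.0% in the cJun list, and regions of all 9 factors 9.35% and 13.3%. Regions of 5 of the 6 factors, without KLF4, stood at 35.0% and 42.7%. The first 3 Jun-KLF-receptor regions in the KLF5 list, named after the order was seen, were lines 11, 13 and 42. They lay on chromosome 10 at 107052548 to 107052947, 116738823 to 116739222 and 107099647 to 107100046, and 2 of the 3 fall in the bin between 107 and 108 Mb that holds 375 listed intervals.

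**Figure D5:**
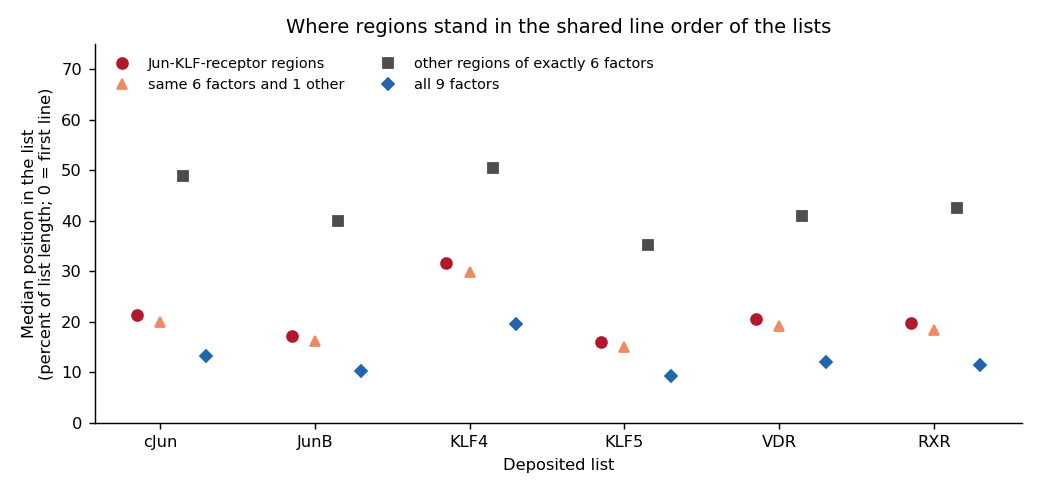
Median position, as a percentage of list length from the first line, of Jun-KLF-receptor regions (red circles), regions of the same 6 factors and 1 other (orange triangles), other regions of exactly 6 factors (grey squares) and regions of all 9 factors (blue diamonds). In each of the 6 lists the Jun-KLF-receptor regions stand before the other regions of exactly 6 factors, at 16.0% against 35.2% in the KLF5 list.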

How the data were processed

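The authors deposited, for each of 9 factors, a list of 400 bp intervals with chromosome, start and end and no score, signal or read number. FastQC, Bowtie, HOMER and mm9 are named per the submitters' processing notes; versions, roles, the threshold for a peak and the making of the common set of 34726 intervals are not stated in these sources. Of 30 labelled samples, 21 were not analysed here. Coordinates are 1-based in mm9. No mm9 genome or annotation was used, so no sequence, motif or gene is given. The 2 intervals on chromosome Y were left out.

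Distances run between midpoints, and near means within 10 kb. Intervals of exactly 6 factors were left out of the main counts and shares of neighbours, and kept in the other comparisons of nearby sites. The 95% intervals of shares are exact (Clopper-Pearson) and reflect counting error alone. Differences (Jun-KLF-receptor regions minus other regions of exactly 6 factors) carry 95% intervals from a jackknife over 20 chromosomes (t distribution, 19 degrees of freedom). In all, 23 differences of shares were computed, without adjustment for their number, and 16 intervals did not hold 0. Not all were set out beforehand. Those for another Jun-KLF-receptor region nearby, for grouped factors (2) and for a further site of the same factor (6) were not in the plan. Neighbours per 100 regions, each neighbour counted once per set, were added after the shares were seen, with the same jackknife. With 1 library per factor and regions as units, no p-value is given. The regions named were the 10 closest pairs and the 5 most isolated; the sixth isolated one, the groups of 3, the densest bins and the first lines of the KLF5 list were added after their values were seen. The members and all comparisons were chosen with earlier results of these data known. The code was checked on simulated intervals. Alternatives covered the distance, chromosome 10, close neighbours, the regions compared with, counts per region and merging of overlapping intervals. Python 3.11.15, numpy 2.4.6, scipy 1.17.1, pandas 2.3.3 and matplotlib 3.10.9 were used.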

Additional observations from a re-analysis of the deposited data

How the results depend on the processing

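Over 24 results and 119 alternatives, 87 kept their direction and their side of 0 (counts: within 1.5 times); 25 lost an interval without 0, 2 gained one and 5 changed sign. The number of regions was 672 when overlapping intervals were merged and 636 without chromosome 10. Differences are in percentage points; the cause of each change was not tested, except that fewer regions enter some alternatives. Against the regions sharing 5 of the 6 factors, the neighbours' differences with intervals reaching 0 were -3.63 for ATF2, -1.82 for ATF7, -0.796 for FOSL2, 2.89 for JunB, 6.53 for VDR, 3.42 for RXR and -4.15 for any of ATF2, ATF7 and FOSL2. Against the same regions the difference for another Jun-KLF-receptor region nearby was 1.97. Counted as neighbours per 100 regions, which divides by regions and not by neighbours, the differences were 2.10 for cJun, 0.167 for VDR and 2.74 for both receptors, with intervals reaching 0; those of JunB (-1.77), KLF4 (-3.71) and RXR (-0.377) changed sign, and that of KLF5 (-18.5) left out 0. With neighbours under 1 kb left out, the shares' differences reaching 0 were -3.93 for ATF7, -3.17 for FOSL2, 4.55 for cJun, 3.67 for JunB and 7.64 for RXR. Within 5 kb they were 4.88 for cJun and 3.19 for JunB, and within 50 kb -3.61 for FOSL2 and 2.87 for JunB. For a further site of the same factor, the difference was 3.66 for cJun within 5 kb, and 0.654 and 2.38 for JunB within 5 and 50 kb. Without chromosome 10 it was 4.74 for cJun and 2.85 for JunB, and -0.853 for RXR, a changed sign; KLF5 at neighbours changed sign to 0.399 (neither interval left out 0). Without chromosome 10 the difference for any listed interval nearby was -6.15, and its interval then left out 0. No paired analysis was possible because each factor had 1 library and no groups with replicates were compared. Depth is unknown, so it cannot be said whether a list lacks a site or its library lacked reads.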
